A study of Mus musculus with 23 samples.

Results

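Testis RNA of NZO/HlLtJ mice was compared with testis RNA of C57BL/6J mice kept on the same control diet. NZO/HlLtJ is an inbred strain whose males become obese and are prone to diabetes, and C57BL/6J is the inbred strain behind the mouse reference genome. The comparison takes the 8 libraries whose labels name these strains and a diet with 10% fat and fiber, 4 of NZO/HlLtJ and 4 of C57BL/6J, out of 23 libraries in the series. All 8 came from males labelled wild type and untreated, whose diet started at 6 weeks of age and whose tissue was collected at 16 weeks. The series also holds CAST/EiJ testes, and testes of these strains on a diet with 44% fat. The strains differ across the whole genome, so no difference given here can be tied to 1 locus, and body weight and blood glucose were not analysed here.

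The testis makes sperm and testosterone. Leydig cells, which lie between the seminiferous tubules, turn cholesterol into testosterone when luteinising hormone reaches them. Inside the tubules, Sertoli cells nurse the germ cells, which divide as spermatogonia, pass through meiosis as spermatocytes and reshape themselves as round and then elongating spermatids. A library of whole testis mixes all of these cells, so fewer cells of a type and less RNA per cell cannot be told apart.

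PolyA RNA was sequenced, and each library held between 21.9 and 43.4 M estimated counts (M, 1e+06), the lowest being C57BL/6J replicate 4. Levels are given as counts per 1e+06 counts after scaling (CPM) and are not compared between different genes. The first principal component of the 8 libraries held 64.0% of the variance and parted the strains, with scores from 58.5 to 66.6 in NZO/HlLtJ and from -62.3 to -58.9 in C57BL/6J. On the second component, with 8.24%, C57BL/6J replicate 4 scored 48.6 and the other libraries lay between -27.3 and 5.82. The numbers in the sample titles fall into 3 runs, which no label calls batches: NZO/HlLtJ replicates 1 and 2 and C57BL/6J replicate 1 are in run 1, C57BL/6J replicate 2 is in run 2, and replicates 3 and 4 of both strains are in run 3. The tissue label was checked on late spermatids: Prm1, a protamine that packs sperm DNA, averaged 1212 ± 166 CPM in NZO/HlLtJ testes and 1394 ± 127 CPM in C57BL/6J (SD, n = 4 each). Ifi202b, a gene that C57BL/6J is known to express hardly at all, had 2.06, 1.898, 2.37 and 2.91 CPM in NZO/HlLtJ, against 0.0523, 0.134, 0.214 and 0.138 CPM in C57BL/6J. The libraries of the strains did not overlap in this gene, so it gave no sign of exchanged labels.

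The strains differed in a large share of the transcriptome, mostly by small amounts. Of 22873 genes tested, 9805 passed the threshold of 0.05 on the adjusted p of edgeR (42.9%), of which 5018 were higher (21.9% of all tested) and 4787 were lower (20.9%) in NZO/HlLtJ. The median absolute log2 fold change of these genes was 0.47, and 77.2% of them differed by less than 2-fold. At least 8-fold differences were found in 479 genes (2.09%), 157 higher (0.686%) and 322 lower (1.41%). The median log2 fold change of all genes tested was 0.0079. Each count of list members below is to be read beside the shares of all genes tested, 21.9% higher and 20.9% lower. Nothing in the labels says that the libraries of a strain came from separate animals, so p-values measure only the spread between these samples.

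Genes of testosterone synthesis were split. The receptor for luteinising hormone and several enzymes were higher in NZO/HlLtJ, while the first enzyme of the pathway and 1 of a pair of 3-beta-hydroxysteroid dehydrogenases were lower. Of 16 genes of Leydig cell steroidogenesis, 9 were higher, 3 were lower and 4 did not pass, with a median log2 fold change of 0.33. The summed level of the list was 1382 to 1916 CPM in NZO/HlLtJ testes and 1029 to 1168 CPM in C57BL/6J. Lhcgr, the receptor for luteinising hormone, had 22.8, 25.3, 30.8 and 28.00 CPM in NZO/HlLtJ, against 8.92, 7.61, 10.9 and 6.94 CPM in C57BL/6J. Every NZO/HlLtJ library was above every C57BL/6J library, with a log2 fold change of 1.63 ± 0.13 (SE) and an adjusted p of 2.33e-11. Star, which carries cholesterol into the mitochondrion, had 45.8, 56.3, 137 and 80.7 CPM in NZO/HlLtJ, against 91.3, 84.5, 118 and 73.5 CPM in C57BL/6J. Its groups overlapped, with the wider spread in NZO/HlLtJ, and it did not pass the threshold (-0.20 ± 0.26, adjusted p 0.571); its log2 fold change was -0.84 in run 1 alone and 0.18 in run 3 alone. Cyp11a1, which cuts the side chain of cholesterol to make pregnenolone, had 58.8, 70.7, 104 and 113 CPM in NZO/HlLtJ, against 125, 126, 122 and 116 CPM in C57BL/6J. NZO/HlLtJ replicates 1 and 2 lay far below the rest. Cyp11a1 was lower with all libraries (adjusted p 0.0149) and did not pass without NZO/HlLtJ replicate 1 or 2 (adjusted p from 0.0592 to 0.0761).

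The 2 dehydrogenases of the Hsd3b family differed in opposite directions. Hsd3b1, which turns pregnenolone into progesterone, had 286, 281, 286 and 354 CPM in NZO/HlLtJ, against 52.3, 58.1, 50.5 and 69.7 CPM in C57BL/6J. Hsd3b6, the isoform known from adult mouse Leydig cells, had 5.62, 6.01, 5.99 and 7.25 CPM in NZO/HlLtJ, against 100.2, 93.2, 97.8 and 58.6 CPM in C57BL/6J. Neither gene overlapped between the strains, and the log2 fold changes were 2.39 ± 0.08 for Hsd3b1 and -3.82 ± 0.18 for Hsd3b6. Together the 2 genes amounted to 308 ± 35.5 CPM in NZO/HlLtJ testes and 145 ± 11.3 CPM in C57BL/6J (SD, n = 4 each). Hsd3b6 has a near copy in Hsd3b2, with 92.6% identity over the aligned transcript, at 5.41 ± 0.328 CPM in NZO/HlLtJ testes and 5.79 ± 0.458 CPM in C57BL/6J, and the sum of Hsd3b6 and Hsd3b2 was 11.6 ± 0.790 CPM in NZO/HlLtJ testes and 93.2 ± 19.5 CPM in C57BL/6J. Cyp17a1, the enzyme that makes androgen precursors from progesterone, averaged 561 ± 102 CPM in NZO/HlLtJ testes and 321 ± 28.1 CPM in C57BL/6J (SD, n = 4 each). Its log2 fold change was 0.81 ± 0.13, with no overlap between the strains. Hsd17b3, which makes testosterone in the last step, had 51.7, 50.1, 58.00 and 71.97 CPM in NZO/HlLtJ, against 20.7, 20.9, 18.2 and 18.1 CPM in C57BL/6J, and the groups stood clear of each other. Nr5a1, a nuclear receptor that switches on steroidogenic genes, was also higher (log2 fold change 0.77 ± 0.10). Scarb1, which takes up cholesterol from lipoproteins, was lower (-0.34 ± 0.07). Insl3, a peptide hormone of Leydig cells, had 142, 139, 133 and 241 CPM in NZO/HlLtJ, against 143, 133, 129 and 151 CPM in C57BL/6J. Apart from NZO/HlLtJ replicate 4 the libraries lay together, and Insl3 did not pass (adjusted p 0.220).

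**Figure D1:**
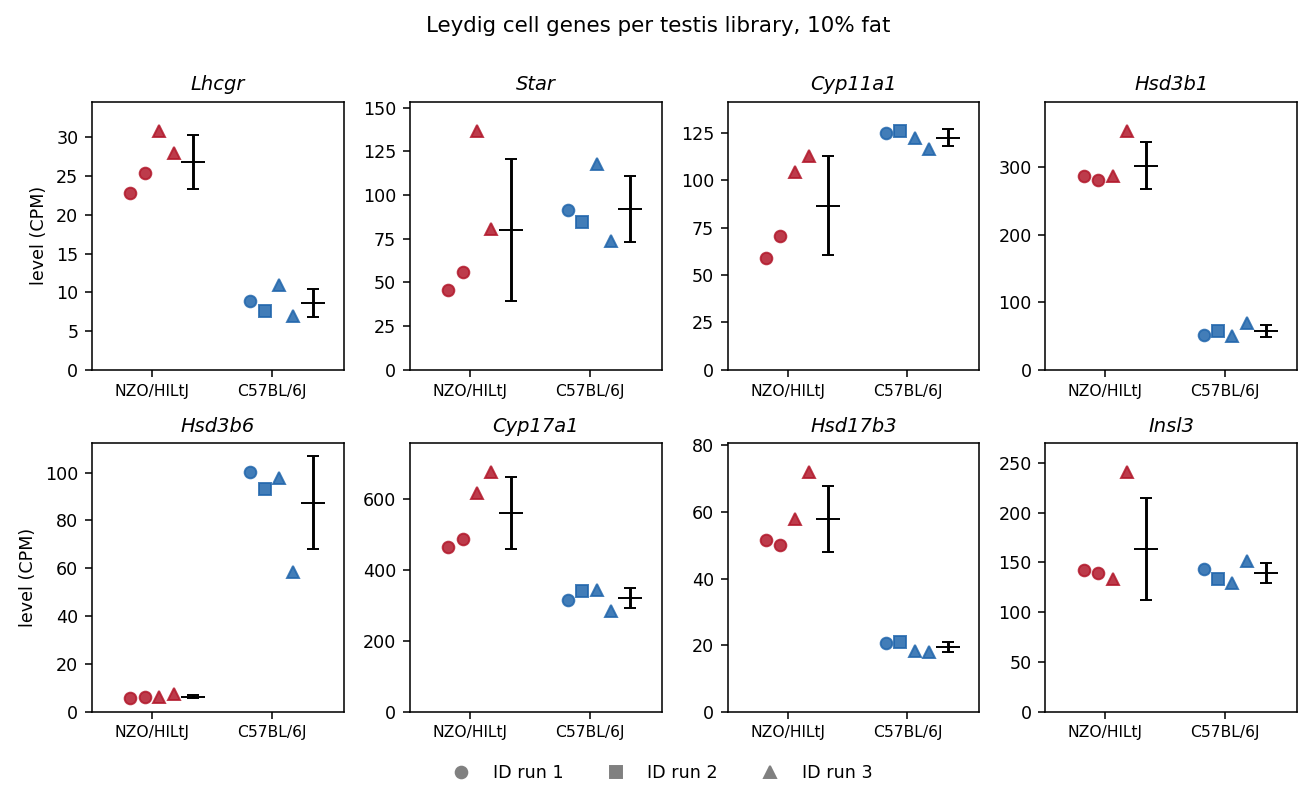
Levels of 8 Leydig cell genes (CPM, linear axes from 0) in each testis library, NZO/HlLtJ in red to the left and C57BL/6J in blue, with bars for the mean and SD over 4 libraries and the marker showing the ID run. Lhcgr, Hsd3b1, Cyp17a1 and Hsd17b3 lie higher in all NZO/HlLtJ libraries and Hsd3b6 lower, while Star and Insl3 overlap.

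Genes that make and take up cholesterol, from which testosterone is built, were mostly higher in NZO/HlLtJ. Of 25 genes, 16 were higher, 4 were lower and 5 did not pass, with a median log2 fold change of 0.40. The 4 lower ones were Pmvk, Idi1, Fdft1 and Sc5d, enzymes of the same pathway, and Sc5d did not pass without NZO/HlLtJ replicate 1 or 4 or C57BL/6J replicate 3 (adjusted p from 0.0681 to 0.203). Within run 1 alone, with 2 libraries against 1, the median was 0.16 and 9 genes were higher, while in run 3 alone, with 2 against 2, the median was 0.52.

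Promoters of 3 of the higher genes are shown because sterol genes are known to be driven together by SREBP2, which acts beside the CCAAT-binding factor NF-Y. They are the 250 bases before the start of transcription in RefSeq, build GRCm38.p6, printed from 5′ to 3′ on the strand of the gene. Hmgcs1 lies on the plus strand at chr13:119690101-119690350, Msmo1 on the minus strand at chr8:64733579-64733828 and Nsdhl on the plus strand at chrX:72918271-72918520. In the gene coordinates deposited with the counts, Msmo1 starts at chr8:64733792, inside the stretch shown for it. Most of that stretch is thus within the gene by those coordinates. Capitals mark CCAAT or its reverse complement ATTGG, and in Hmgcs1 also the sterol element TCACNCCAC.
Hmgcs1: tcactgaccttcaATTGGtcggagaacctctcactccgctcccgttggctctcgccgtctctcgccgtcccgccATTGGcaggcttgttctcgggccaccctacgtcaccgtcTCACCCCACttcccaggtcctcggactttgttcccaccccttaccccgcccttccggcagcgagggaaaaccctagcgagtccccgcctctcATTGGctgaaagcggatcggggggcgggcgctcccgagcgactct
Msmo1: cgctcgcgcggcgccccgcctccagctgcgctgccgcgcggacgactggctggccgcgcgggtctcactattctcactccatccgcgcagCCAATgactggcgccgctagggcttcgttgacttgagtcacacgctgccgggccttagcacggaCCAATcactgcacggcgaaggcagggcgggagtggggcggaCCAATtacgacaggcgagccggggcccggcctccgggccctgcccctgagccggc
Nsdhl: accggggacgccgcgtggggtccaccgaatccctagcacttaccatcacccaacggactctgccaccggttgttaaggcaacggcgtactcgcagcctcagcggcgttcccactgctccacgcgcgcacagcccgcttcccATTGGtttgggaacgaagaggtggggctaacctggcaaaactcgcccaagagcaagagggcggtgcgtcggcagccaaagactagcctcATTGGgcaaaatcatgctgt
CCAAT in either orientation was found in 17 of 18 cholesterol genes whose promoter could be matched (94.4%), against 10133 of 27025 genes of the table (37.5%). The 27025 include non-coding genes and pseudogenes, and the share among protein-coding genes alone is not given. TCACNCCAC or its reverse complement GTGGNGTGA was found in 1 of the 18, Hmgcs1, and in 1.22% of all genes. The cholesterol genes with CCAAT included Idi1, Pmvk and Sc5d, which were lower in NZO/HlLtJ. These matches describe the letters and show no binding.

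Msmo1, a sterol demethylase of the late pathway, had 42.3, 43.8, 58.1 and 55.3 CPM in NZO/HlLtJ, against 21.2, 22.3, 27.7 and 19.1 CPM in C57BL/6J. All NZO/HlLtJ libraries were above all C57BL/6J libraries (log2 fold change 1.14 ± 0.16, adjusted p 1.16e-06). Hmgcs1, which makes HMG-CoA, had 109, 110.2, 123 and 115 CPM in NZO/HlLtJ, against 77.2, 78.3, 86.96 and 84.1 CPM in C57BL/6J, again with no overlap. Nsdhl, which works beside Msmo1, had 14.9, 16.7, 18.5 and 22.4 CPM in NZO/HlLtJ, against 11.3, 11.1, 11.1 and 9.42 CPM in C57BL/6J. It too was higher in each NZO/HlLtJ library. The groups were also separate for Stard4, a cytosolic sterol carrier, at 23.1 ± 1.59 CPM in NZO/HlLtJ testes and 11.3 ± 0.822 CPM in C57BL/6J (SD, n = 4 each).

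Genes of fatty acid uptake and oxidation were also more often higher. Of 26 genes, 14 were higher, 3 were lower and 9 did not pass, with a median log2 fold change of 0.24. Fabp3, a fatty acid binding protein, had 179.8, 168, 205 and 251 CPM in NZO/HlLtJ, against 89.7, 81.4, 75.9 and 65.3 CPM in C57BL/6J. The groups did not overlap (log2 fold change 1.36 ± 0.10, adjusted p 3.12e-12). Acaa2, a thiolase of mitochondrial beta-oxidation, was higher as well (1.04 ± 0.09), and so were the acyl-CoA dehydrogenases Acadl (0.65 ± 0.07) and Acadm (0.59 ± 0.06). Ppargc1a, a coactivator of mitochondrial genes, was lower, at 1.96 ± 0.280 CPM in NZO/HlLtJ testes and 3.53 ± 0.612 CPM in C57BL/6J (SD, n = 4 each). Acsl1, which activates long-chain fatty acids, was lower too (-0.34 ± 0.06).

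Sertoli cell genes were higher in NZO/HlLtJ in most cases, with a cystatin as the chief exception. Of 20 genes, 14 were higher, 2 were lower and 4 did not pass, with a median log2 fold change of 0.29. The mean log2 level of the list, relative to the mean of all 8 libraries, overlapped between the strains. It was -0.075, 0.024, 0.008 and 0.281 in NZO/HlLtJ replicates 1 to 4, the last far above the others. In C57BL/6J it was -0.066, -0.093, -0.057 and -0.022. The summed level of the list was 1366 to 1812 CPM in NZO/HlLtJ testes and 1266 to 1374 CPM in C57BL/6J, and in run 1 alone 9 genes were higher. Fshr, the receptor for follicle-stimulating hormone, had 3.98, 4.59, 3.87 and 6.02 CPM in NZO/HlLtJ, against 1.99, 1.77, 1.68 and 1.47 CPM in C57BL/6J. The lowest NZO/HlLtJ library was above the highest C57BL/6J library (log2 fold change 1.40 ± 0.16, adjusted p 3.43e-08). Cst9, a cystatin known from Sertoli cells, had 10.02, 9.52, 7.99 and 10.2 CPM in NZO/HlLtJ, against 61.1, 66.8, 71.7 and 78.1 CPM in C57BL/6J. That is the opposite direction from most of the list, with a log2 fold change of -2.88 ± 0.08 and no overlap. Shbg, the androgen-binding globulin, was lower too, at 2.37 ± 0.596 CPM in NZO/HlLtJ testes and 4.98 ± 0.698 CPM in C57BL/6J (SD, n = 4 each). Sox9, a factor that fixes Sertoli cell identity, was higher by a small amount (0.33 ± 0.08).

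Of 16 genes of the blood-testis barrier and its junctions, 8 were higher, 0 were lower and 8 did not pass, with a median of 0.21. Lama1, a laminin chain of basement membranes, had 48.1, 50.9, 46.1 and 58.1 CPM in NZO/HlLtJ, against 20.8, 20.8, 20.7 and 21.5 CPM in C57BL/6J. The C57BL/6J libraries were almost alike and all NZO/HlLtJ libraries were above them (log2 fold change 1.28 ± 0.07, adjusted p 1.04e-14). Gja1, a gap junction protein, averaged 91.9 ± 3.58 CPM in NZO/HlLtJ testes and 53.1 ± 2.75 CPM in C57BL/6J (SD, n = 4 each). F11r, a junctional adhesion molecule, was higher as well (0.97 ± 0.08). Tjp1 and Ocln, which build tight junctions, did not pass (0.02 ± 0.06 and 0.12 ± 0.11).

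Most genes of undifferentiated spermatogonia that passed were higher in NZO/HlLtJ, and all round and elongating spermatid genes that passed were lower. Of 14 tested genes of undifferentiated spermatogonia, 6 were higher, 2 were lower and 6 did not pass, with a median of 0.37; Nanos2 and Pax7 were too low to be tested. Ret, the receptor for the stem cell factor GDNF, had 4.71, 5.87, 4.99 and 6.07 CPM in NZO/HlLtJ, against 1.62, 1.39, 1.38 and 2.11 CPM in C57BL/6J. The groups did not overlap (log2 fold change 1.76 ± 0.15, adjusted p 1.16e-10). Zbtb16, a zinc finger factor of spermatogonial stem cells, had 17.02, 15.9, 11.8 and 23.7 CPM in NZO/HlLtJ, against 5.05, 7.23, 5.901 and 7.49 CPM in C57BL/6J. Its groups were separate, as were those of Lin28a, an RNA-binding protein of early spermatogonia, at 8.65 ± 0.573 CPM in NZO/HlLtJ testes and 3.66 ± 0.481 CPM in C57BL/6J (SD, n = 4 each). Gfra1, the co-receptor that works with Ret, averaged 9.61 ± 0.405 CPM in NZO/HlLtJ testes and 9.22 ± 0.589 CPM in C57BL/6J and did not pass (adjusted p 0.554). The lower genes of the list were Eomes (-2.06 ± 0.43) and Lhx1 (-0.52 ± 0.17). Eomes had a mean under 1 CPM over the 8 libraries. In run 3 alone 0 of the list were lower.

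Of 11 genes of differentiating spermatogonia, 5 were higher, 0 were lower and 6 did not pass, with a median of 0.30. Kit, the receptor that marks spermatogonia once they differentiate, had 81.1, 76.4, 69.7 and 91.3 CPM in NZO/HlLtJ, against 32.5, 31.5, 33.7 and 41.2 CPM in C57BL/6J. Every NZO/HlLtJ library was above every C57BL/6J library (log2 fold change 1.20 ± 0.08, adjusted p 1.13e-12). Kitl, its ligand from Sertoli cells, was higher too (0.35 ± 0.09). Stra8, which starts meiosis, did not pass (0.22 ± 0.11, adjusted p 0.0986). In run 1 alone 2 of the list were higher, and 2 in run 3 alone, where fewer libraries enter.

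Of 29 genes of meiotic recombination and the synaptonemal complex, 5 were higher, 6 were lower and 18 did not pass, shares near those of all genes tested (21.9% higher and 20.9% lower), with a median of -0.03. Meiob, which binds recombining DNA, had 23.9, 25.2, 21.03 and 21.2 CPM in NZO/HlLtJ, against 12.1, 13.95, 14.9 and 16.4 CPM in C57BL/6J. Rec8, a cohesin of meiotic chromosomes, had 49.6, 46.01, 49.2 and 46.4 CPM in NZO/HlLtJ, against 79.4, 73.1, 69.6 and 69.5 CPM in C57BL/6J. Neither gene overlapped between the strains, Meiob being higher and Rec8 lower. Mei1, needed for meiotic DNA breaks, was lower (-0.70 ± 0.12). Sycp3, part of the axis of the synaptonemal complex, was higher (0.21 ± 0.06) with overlapping groups. The median of the list was 0.19 in run 1 alone and -0.08 in run 3 alone. Without C57BL/6J replicate 4, or without NZO/HlLtJ replicate 4, 3 of the list were higher.

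Of 22 genes of the piRNA pathway, which silences transposons in germ cells, 3 were higher, 8 were lower and 11 did not pass, with a median of -0.04. Tdrd12, a helicase of the pathway, averaged 90.7 ± 4.95 CPM in NZO/HlLtJ testes and 66.9 ± 1.95 CPM in C57BL/6J (SD, n = 4 each). Dnmt3l, which guides DNA methylation in germ cells, had 3.59, 3.68, 3.15 and 4.502 CPM in NZO/HlLtJ, against 6.801, 7.53, 5.11 and 8.59 CPM in C57BL/6J. Dnmt3l was lower without overlap (-0.90 ± 0.14), while its partner Dnmt3a was higher (0.38 ± 0.07). Ddx4, a germ cell helicase, was lower by a small amount (-0.16 ± 0.05, adjusted p 0.0160) and did not pass without NZO/HlLtJ replicate 4 or C57BL/6J replicate 3 or 4 (adjusted p from 0.0709 to 0.0838). Its log2 fold change was 0.04 in run 1 alone and -0.35 in run 3 alone.

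Of 17 genes of round spermatids and the acrosome, 0 were higher, 11 were lower and 6 did not pass, with a median of -0.21. Spaca7, an acrosomal protein, had 43.6, 41.96, 41.1 and 41.4 CPM in NZO/HlLtJ, against 56.8, 60.5, 63.97 and 59.4 CPM in C57BL/6J. All NZO/HlLtJ libraries were below all C57BL/6J libraries (log2 fold change -0.52 ± 0.06, adjusted p 4.31e-08). Spam1, a sperm surface hyaluronidase, was lower too, at 58.9 ± 3.85 CPM in NZO/HlLtJ testes and 78.8 ± 3.75 CPM in C57BL/6J (SD, n = 4 each). Acr, the acrosomal protease acrosin, did not pass (-0.04 ± 0.05).

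Of 18 genes of elongating spermatids, 0 were higher, 12 were lower and 6 did not pass, with a median of -0.20. Gapdhs, the glycolytic enzyme of sperm, had 1355, 1262, 1463 and 1108 CPM in NZO/HlLtJ, against 1713, 1762, 1566 and 1535 CPM in C57BL/6J. The groups did not overlap (log2 fold change -0.34 ± 0.06, adjusted p 2.33e-05). In run 3 alone 3 of the list were lower, and the log2 fold change of Gapdhs was -0.28 there. Tnp2, a transition protein that takes the place of histones, was lower (-0.27 ± 0.08), with -0.10 in run 3 alone. Prm1 was lower (-0.20 ± 0.07, adjusted p 0.0226) and did not pass without NZO/HlLtJ replicate 2 or 4 or C57BL/6J replicate 1 or 2 (adjusted p from 0.0713 to 0.105). NZO/HlLtJ replicate 4 was the lowest of the 8 libraries on this list, with a mean log2 level of -0.29 relative to the mean of all 8. The groups overlapped on this measure, NZO/HlLtJ replicate 3, at 0.04, lying above C57BL/6J replicate 4, at 0.02.

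Of 31 genes of the sperm flagellum and motility, 1 was higher, 18 were lower and 12 did not pass, with a median of -0.17. Cfap70, a protein of the axoneme, had 200.4, 197, 192 and 187 CPM in NZO/HlLtJ, against 266, 269, 269 and 267 CPM in C57BL/6J. The libraries within a strain were nearly level and the strains were apart (log2 fold change -0.47 ± 0.04, adjusted p 5.29e-11). Slc9c1, the sperm sodium-proton exchanger, had 156, 155, 147 and 131 CPM in NZO/HlLtJ, against 179, 189, 224 and 235 CPM in C57BL/6J, also with no overlap. Catsper1, Catsper2, Catsper3 and Catsper4, subunits of the sperm calcium channel, were all lower, with log2 fold changes of -0.30, -0.25, -0.25 and -0.21, while Catsperb did not pass (-0.04 ± 0.06). The higher gene was Cfap44, which did not pass without NZO/HlLtJ replicate 1 or 2 or C57BL/6J replicate 1 or 2 (adjusted p from 0.0761 to 0.148), and in run 1 alone 5 of the list were higher.

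**Figure D2:**
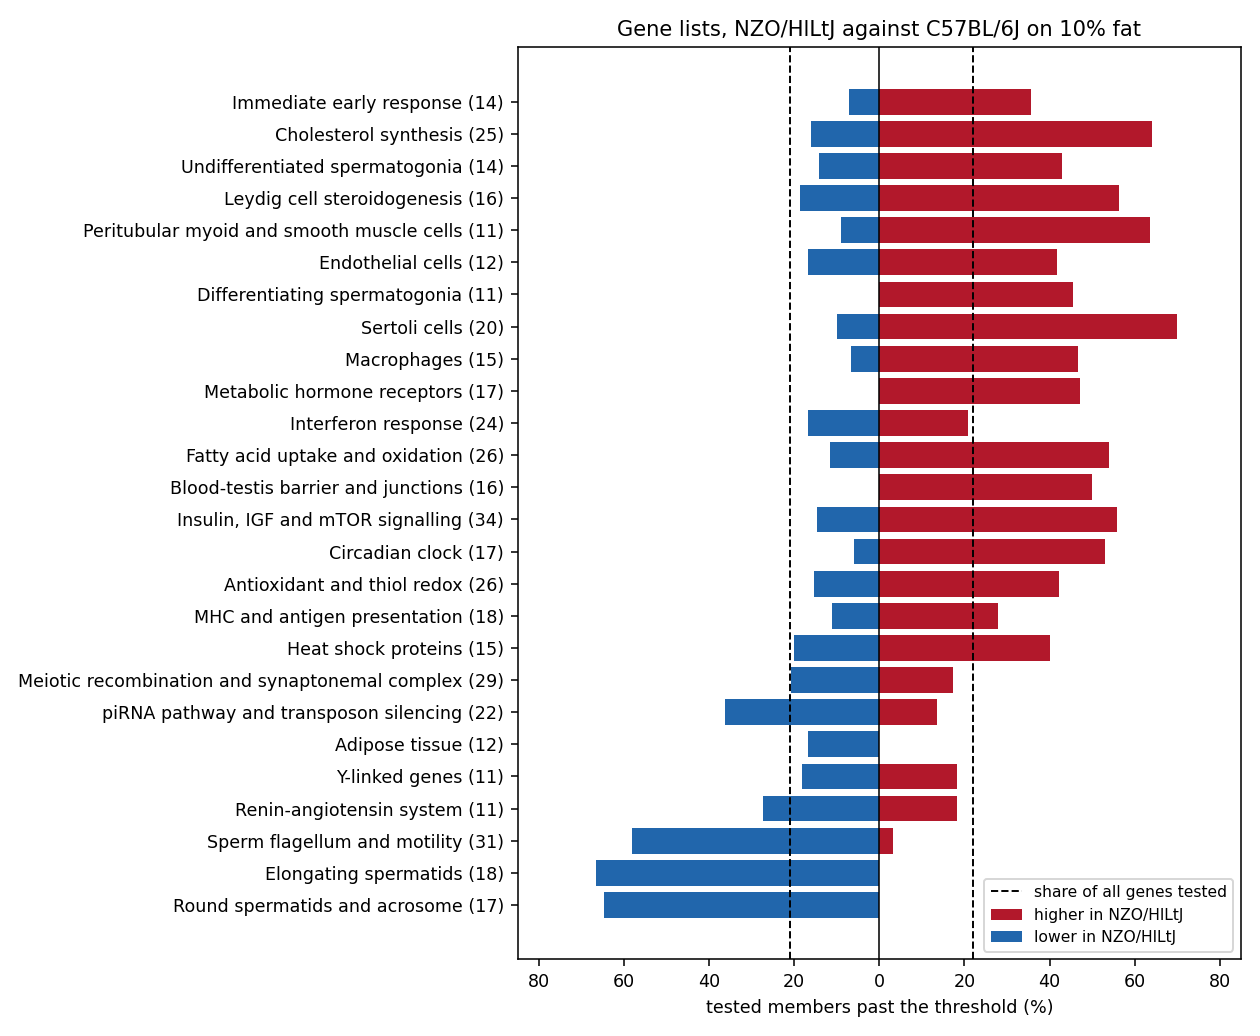
Share of the tested members of each gene list that passed the threshold (%), with higher in NZO/HlLtJ to the right in red and lower to the left in blue, and dashed lines at the shares of all genes tested, 21.9% and 20.9%. The round spermatid, elongating spermatid and flagellum lists extend mostly to the left, and the Sertoli, spermatogonial and cholesterol lists mostly to the right.

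**Figure D3:**
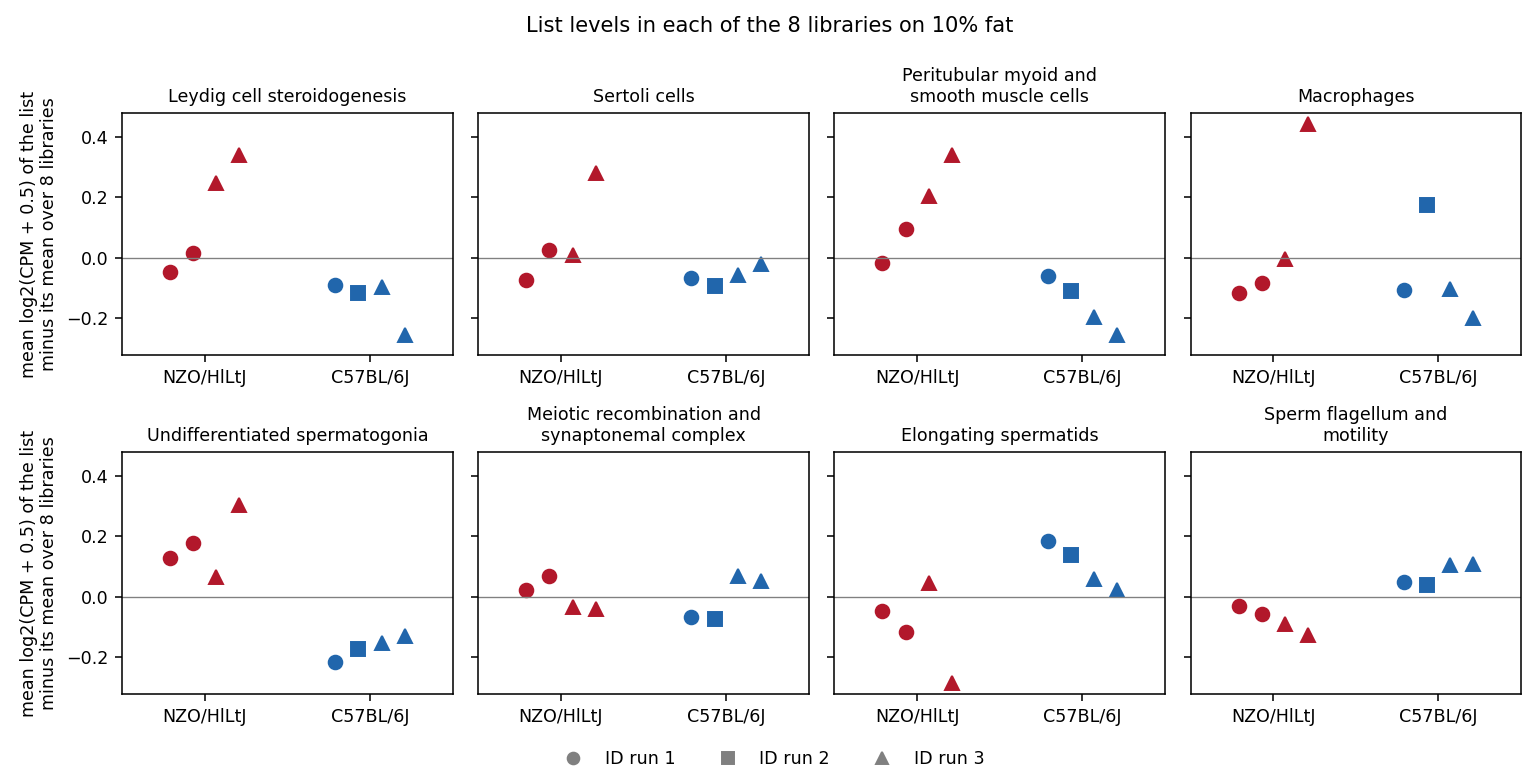
Mean log2(CPM + 0.5) of the members of 8 lists in each library, less its mean over the 8 libraries, NZO/HlLtJ to the left in red and C57BL/6J in blue, with markers for the ID run. The elongating spermatid list is lowest in NZO/HlLtJ replicate 4, at -0.29, with overlapping groups, and the macrophage list is highest in the same library, at 0.44.

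Other cells of the interstitium were followed through their markers. Of 11 genes of peritubular myoid and smooth muscle cells, 7 were higher, 1 was lower and 3 did not pass, with a median of 0.33; in run 1 alone the median was 0.08 and 3 were higher. Tpm2, a tropomyosin, had 10.4, 13.3, 14.2 and 16.7 CPM in NZO/HlLtJ, against 8.27, 7.55, 6.27 and 5.74 CPM in C57BL/6J, without overlap. Of 15 macrophage genes, 7 were higher, 1 was lower and 7 did not pass, and without NZO/HlLtJ replicate 4, 4 were higher. Their summed level was 159 to 226 CPM in NZO/HlLtJ testes and 138 to 167 CPM in C57BL/6J. Csf1r, the receptor that macrophages need to survive, was higher (0.58 ± 0.11), while Adgre1, their classical surface marker, did not pass (-0.19 ± 0.12). Fcgr3, a low-affinity antibody receptor, was the lower gene, with 1.89, 2.38, 2.64 and 3.76 CPM in NZO/HlLtJ, against 12.9, 15.7, 13.4 and 12.03 CPM in C57BL/6J. Its groups did not overlap. Of 12 endothelial genes, 5 were higher, 2 were lower and 5 did not pass. Leaving out NZO/HlLtJ replicate 2, 3 or 4 or C57BL/6J replicate 4 left 3 higher, and leaving out NZO/HlLtJ replicate 1 or 4 or C57BL/6J replicate 2 or 4 left 1 lower. The higher genes included Emcn (0.94 ± 0.23) and Eng (0.48 ± 0.12), both without overlap, and Tie1 (0.48 ± 0.18), with overlap. Tie1 did not pass without NZO/HlLtJ replicate 2, 3 or 4 or C57BL/6J replicate 2 or 4 (adjusted p from 0.0511 to 0.0794). Vwf, a clotting factor stored in endothelium, was lower (-0.32 ± 0.09), and Pecam1, an endothelial adhesion molecule, did not pass (0.34 ± 0.15).

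Tissues beside the testis left few transcripts. Of 12 epididymis genes 3 could be tested, and the summed level of the 5 in the table was 1.44 to 2.41 CPM in NZO/HlLtJ testes and 6.96 to 22.7 CPM in C57BL/6J. Rnase10, a secreted protein of the epididymis, had 0, 0.113, 0 and 0.0241 CPM in NZO/HlLtJ, against 4.66, 4.45, 4.68 and 4.36 CPM in C57BL/6J, an even level within C57BL/6J. Crisp1, another epididymal protein, had 0.0847, 0, 0.0224 and 0 CPM in NZO/HlLtJ, against 0.157, 13.02, 0 and 1.29 CPM in C57BL/6J. C57BL/6J replicate 2 stood far above the rest, and Crisp1 (adjusted p 0.0356) did not pass without NZO/HlLtJ replicate 1, 2, 3 or 4 (adjusted p from 0.0608 to 0.0805), or with the ID run as a covariate (adjusted p 0.499); the count of lower genes, 2, was 1 in each of these fits and without C57BL/6J replicate 2 or 4. Of 12 adipose genes, 0 were higher, 2 were lower and 10 did not pass, with a summed level of 30.4 to 34.8 CPM in NZO/HlLtJ testes and 27.9 to 37.9 CPM in C57BL/6J. Cfd, the adipocyte protease adipsin, was lower (-3.55 ± 0.91), with a mean under 1 CPM over the 8 libraries. Of 5 tested lymphocyte genes, 1 was lower, the T cell gene Cd3e (-1.47 ± 0.45), also with a mean under 1 CPM. Of 7 red blood cell genes, 1 was higher, 1 was lower and 5 did not pass, the lower one, Hba-a2, not passing without NZO/HlLtJ replicate 1 or C57BL/6J replicate 2 (adjusted p from 0.0624 to 0.0915), and their summed level was 43.2 to 71.2 CPM in NZO/HlLtJ testes and 50.4 to 85.1 CPM in C57BL/6J. The part of these tissues in the results above was not tested.

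Of 34 genes of insulin, IGF and mTOR signalling, 19 were higher, 5 were lower and 10 did not pass, with a median of 0.18. Igf2, an imprinted growth factor, had 37.4, 37.3, 35.1 and 35.5 CPM in NZO/HlLtJ, against 9.76, 11.8, 11.7 and 10.8 CPM in C57BL/6J. The strains were far apart and the libraries within each were close (log2 fold change 1.72 ± 0.10, adjusted p 3.05e-14). Igf1r, the receptor for IGF ligands, was higher (0.59 ± 0.09), as was Irs1, an adaptor of the insulin receptor, at 6.39 ± 1.05 CPM in NZO/HlLtJ testes and 3.07 ± 0.783 CPM in C57BL/6J (SD, n = 4 each). Mtor, the kinase that couples nutrients to growth, had 583, 572, 579 and 557 CPM in NZO/HlLtJ, against 364, 362, 361 and 359.8 CPM in C57BL/6J. Its groups did not come near each other (0.66 ± 0.03), while Rptor, which joins it in a complex, was lower (-0.42 ± 0.06). Insr, the insulin receptor, did not pass (-0.17 ± 0.07, adjusted p 0.0529). Igfbp3, a carrier of IGFs, had 3.92, 3.74, 3.400 and 12.04 CPM in NZO/HlLtJ, against 2.302, 2.54, 2.02 and 2.53 CPM in C57BL/6J. It was higher (1.31 ± 0.30), with NZO/HlLtJ replicate 4 far above the others of that strain, and the log2 fold change was 0.65 without that library.

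Receptors for metabolic hormones were tested as a list of 17, of which 8 were higher, 0 were lower and 9 did not pass, with a median of 0.27; 4 were higher in run 1 alone and 5 in run 3 alone. Esr1, an oestrogen receptor, had 21.9, 20.7, 20.5 and 22.8 CPM in NZO/HlLtJ, against 8.16, 10.3, 9.204 and 11.4 CPM in C57BL/6J. The groups did not overlap (log2 fold change 1.14 ± 0.09). Both thyroid hormone receptor genes were higher, Thrb by 1.19 ± 0.14 and Thra by 0.73 ± 0.09 on the log2 scale. Lepr, the leptin receptor, did not pass (0.31 ± 0.18). It also stands among 6 tested genes known to vary in these strains, of which 2 were higher, 1 was lower and 3 did not pass. Abcg1, a cholesterol exporter of that list and not of the receptor list, was higher (1.20 ± 0.19), and the lower gene was Nnt.

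In the renin-angiotensin system 1 gene stood out. Agt, the precursor of angiotensin, had 2.09, 3.23, 3.13 and 5.35 CPM in NZO/HlLtJ, against 189.8, 169.7, 178 and 163 CPM in C57BL/6J. The groups were separated by a log2 fold change of -5.65 ± 0.14 (adjusted p 5.91e-23). Ren1, the enzyme renin that cuts it, had 1.52, 3.202, 2.08 and 2.34 CPM in NZO/HlLtJ, against 0.497, 1.098, 0.581 and 0.551 CPM in C57BL/6J. Renin was thus higher without overlap (1.71 ± 0.26), the angiotensin receptor gene Agtr1a was lower (-0.47 ± 0.10), and Ace did not pass (-0.13 ± 0.07). Of 11 genes in all, 2 were higher, 3 were lower and 6 did not pass. These shares are near those of all genes tested (21.9% higher and 20.9% lower).

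Of 18 genes of the MHC and antigen presentation, 5 were higher, 2 were lower and 11 did not pass, the lower ones being H2-K1 and H2-Ab1; 4 were lower without C57BL/6J replicate 3 and 6 in run 1 alone. H2-K1, a class I heavy chain, had 18.7, 22.7, 21.7 and 26.9 CPM in NZO/HlLtJ, against 52.9, 48.8, 45.1 and 43.5 CPM in C57BL/6J. All NZO/HlLtJ libraries were lower, whereas its near copy H2-D1 was higher (0.73 ± 0.11), and the sum of both was 48.95 ± 6.17 CPM in NZO/HlLtJ testes and 63.4 ± 6.84 CPM in C57BL/6J (SD, n = 4 each). H2-Ab1, a class II chain, averaged 1.900 ± 0.655 CPM in NZO/HlLtJ testes and 6.81 ± 2.48 CPM in C57BL/6J. Of 24 interferon response genes, 5 were higher, 4 were lower and 15 did not pass, shares near those of all genes tested (21.9% higher and 20.9% lower); 8 were higher without NZO/HlLtJ replicate 2, and 2 were lower without C57BL/6J replicate 4. Ifi203 and Ifi204, of a family of interferon-induced DNA sensors, were lower (-1.33 ± 0.14 and -1.94 ± 0.30). Ifi204 had a mean under 1 CPM over the 8 libraries.

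Of 26 antioxidant and thiol redox genes, 11 were higher, 4 were lower and 11 did not pass, with 2 lower without NZO/HlLtJ replicate 4. Idh2, which makes NADPH in mitochondria, averaged 12.8 ± 1.06 CPM in NZO/HlLtJ testes and 6.03 ± 0.233 CPM in C57BL/6J (SD, n = 4 each). Txn1, thioredoxin, was higher as well (0.86 ± 0.13), while Prdx4, a peroxiredoxin, was lower (-0.45 ± 0.05). Nnt, a mitochondrial transhydrogenase of which C57BL/6J is known to carry a broken copy, had 56.2, 55.5, 55.4 and 52.8 CPM in NZO/HlLtJ, against 58.4, 57.3, 62.7 and 65.2 CPM in C57BL/6J. Its difference was small (-0.15 ± 0.05, adjusted p 0.0137) and did not pass without NZO/HlLtJ replicate 4 or C57BL/6J replicate 4 (adjusted p from 0.0505 to 0.0604), and a level summed over the gene does not show whether the exons lost in C57BL/6J were read. Of 15 heat shock genes, 6 were higher, 3 were lower and 6 did not pass, with Hspe1, a mitochondrial chaperonin, at 0.58 ± 0.09.

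Genes that answer to handling or time of day were set beside these. Of 17 circadian clock genes, 9 were higher, 1 was lower and 7 did not pass; the lower gene, Per2, did not pass without C57BL/6J replicate 2 (adjusted p 0.0570), and 2 were lower without NZO/HlLtJ replicate 1. Bhlhe41, a repressor of the clock, had 4.07, 4.62, 5.12 and 5.01 CPM in NZO/HlLtJ, against 1.88, 2.09, 2.17 and 2.34 CPM in C57BL/6J, without overlap. Of 14 immediate early genes, 5 were higher, 1 was lower and 8 did not pass, and 2 were higher without NZO/HlLtJ replicate 4 and 3 without C57BL/6J replicate 2 or 3. Egr1, a fast growth-response factor, was higher (0.54 ± 0.17), while Fos did not pass (0.45 ± 0.47). The part of handling and of the hour of collection in the other results was not tested.

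The largest differences mixed genes near 0 in 1 strain with genes that have near copies. Whether reads were aligned to strain-specific sequence is not stated, and C57BL/6J is the strain behind the reference genome. Less RNA in NZO/HlLtJ and fewer aligned reads therefore cannot be told apart where the strains differ in sequence. This limit also holds for the 322 genes at least 8-fold lower. Itpr3os, an antisense transcript at chr17:27099658-27101440 (minus strand, GRCm38), had 0, 0, 0 and 0 CPM in NZO/HlLtJ, against 28.6, 30.1, 22.02 and 27.1 CPM in C57BL/6J. Set against 3 counts over the group, it was at least 1419-fold lower, and bounds and intervals of this kind cover counting error only. Itpr3, which overlaps it on the other strand, was lower by a smaller amount, at 17.1 ± 2.34 CPM in NZO/HlLtJ testes and 25.3 ± 1.89 CPM in C57BL/6J, and since the counting is not stated to use strand the reads of such a pair cannot be told apart. Vmn2r7, a vomeronasal receptor at chr3:64690660-64844765, had 0, 0, 0 and 0 CPM in NZO/HlLtJ, against 19.6, 19.6, 22.4 and 22.3 CPM in C57BL/6J. By the same measure it was lower by a factor of 1085 or more. Summed with its near copies Vmn2r4 and Vmn2r6 it stayed low, at 0.394 ± 0.267 CPM in NZO/HlLtJ testes and 21.7 ± 1.69 CPM in C57BL/6J. Gm26939, which overlaps Vmn2r7 on the same strand, averaged 0.0251 ± 0.0341 CPM in NZO/HlLtJ testes and 3.25 ± 0.928 CPM in C57BL/6J. Galntl6, of the glycosyltransferase family, at chr8:57774052-58912640, had 0.395, 0.425, 0.268 and 0.241 CPM in NZO/HlLtJ, against 82.7, 90.1, 103 and 90.8 CPM in C57BL/6J. It was close to 0 in each NZO/HlLtJ library (adjusted p 5.44e-27). Gm26905, which overlaps it on the other strand, averaged 526 ± 83.2 CPM in NZO/HlLtJ testes and 615 ± 36.5 CPM in C57BL/6J. Gm15881, on the same strand, averaged 14.1 ± 0.494 CPM in NZO/HlLtJ testes and 10.0 ± 0.697 CPM in C57BL/6J. Reads of these overlapping genes cannot be told apart either. Adam26a, a testis metalloprotease, averaged 0.366 ± 0.116 CPM in NZO/HlLtJ testes and 74.6 ± 10.9 CPM in C57BL/6J, while its near copy Adam26b averaged 15.3 ± 1.39 CPM in NZO/HlLtJ testes and 16.7 ± 3.22 CPM in C57BL/6J (SD, n = 4 each). Trpv1, an ion channel, averaged 0.0565 ± 0.0290 CPM in NZO/HlLtJ testes and 5.11 ± 0.683 CPM in C57BL/6J, and Cd5l, a macrophage protein, 0.0747 ± 0.0507 CPM in NZO/HlLtJ testes and 5.58 ± 0.726 CPM in C57BL/6J. Pnp2, a nucleoside phosphorylase, was at 0 CPM in every NZO/HlLtJ library and 8.43 CPM on average in C57BL/6J, and with its copy Pnp the sum was 5.77 ± 1.85 CPM in NZO/HlLtJ testes and 14.8 ± 1.44 CPM in C57BL/6J. Ppp1r2-ps1, a pseudogene with 2 counts in NZO/HlLtJ in all, had a ratio of 0.000891 with an exact 95% interval from 0.000108 to 0.00322. With its closest copy Ppp1r2-ps6 (99.8% identity) the sum was 20.1 ± 1.87 CPM in NZO/HlLtJ testes and 55.1 ± 1.94 CPM in C57BL/6J. Over all its near copies the sum was 159 ± 5.58 CPM in NZO/HlLtJ testes and 197 ± 3.21 CPM in C57BL/6J. Gm26848, which overlaps Ppp1r2-ps1 on the other strand, averaged 12.3 ± 0.427 CPM in NZO/HlLtJ testes and 9.08 ± 0.742 CPM in C57BL/6J.

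Among the higher genes, Lpo, lactoperoxidase, had 13.5, 13.3, 13.3 and 14.3 CPM in NZO/HlLtJ, against 0.0262, 0.0803, 0.306 and 0.0459 CPM in C57BL/6J. Tnn, an extracellular tenascin, had 15.8, 15.8, 15.7 and 15.6 CPM in NZO/HlLtJ, against 0.235, 0.0268, 0.153 and 0.184 CPM in C57BL/6J. Both were steady within NZO/HlLtJ and near 0 in C57BL/6J. Styk1, a kinase, averaged 20.5 ± 2.397 CPM in NZO/HlLtJ testes and 0.333 ± 0.171 CPM in C57BL/6J (SD, n = 4 each). Mog, a myelin protein, averaged 6.06 ± 0.410 CPM in NZO/HlLtJ testes and 0.0534 ± 0.0230 CPM in C57BL/6J, and Apoc2, an apolipoprotein, 5.33 ± 0.203 CPM in NZO/HlLtJ testes and 0.0742 ± 0.0566 CPM in C57BL/6J. Dchs2, a cadherin, was higher too, at 7.31 ± 1.28 CPM in NZO/HlLtJ testes and 0.103 ± 0.0703 CPM in C57BL/6J. For 2 genes of this set the sums with their copies did not follow them. Hba-a1, an alpha globin, had 5.82, 5.98, 10.7 and 10.8 CPM in NZO/HlLtJ, against 0, 0, 0 and 0 CPM in C57BL/6J, which makes it at least 371-fold higher. With its copy Hba-a2 the sum was 20.1 ± 7.16 CPM in NZO/HlLtJ testes and 21.6 ± 6.78 CPM in C57BL/6J. Hist2h2aa2, a histone H2A gene, had 68.9, 73.1, 81.4 and 78.6 CPM in NZO/HlLtJ, against 0.209, 0.268, 0 and 0.184 CPM in C57BL/6J. With Hist2h2aa1, whose transcript is identical, the sum was 119 ± 7.34 CPM in NZO/HlLtJ testes and 144 ± 18.1 CPM in C57BL/6J. Gm20632, which overlaps Hist2h2aa2 on the other strand, averaged 26.1 ± 2.71 CPM in NZO/HlLtJ testes and 9.69 ± 1.18 CPM in C57BL/6J. Of the genes with the smallest p, Eno1b, a copy of the glycolytic gene Eno1, averaged 4.34 ± 0.165 CPM in NZO/HlLtJ testes and 56.8 ± 4.695 CPM in C57BL/6J, and the sum of Eno1b and Eno1 was 346 ± 23.6 CPM in NZO/HlLtJ testes and 379 ± 34.5 CPM in C57BL/6J. Atp6ap1l, related to a proton pump subunit, averaged 1.37 ± 0.112 CPM in NZO/HlLtJ testes and 43.9 ± 5.53 CPM in C57BL/6J (SD, n = 4 each).

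Genes that differed lay on all chromosomes, with uneven shares. On chromosome X, 307 of 984 tested genes were higher (31.2%) and 172 were lower (17.5%). On chromosome Y, 2 of 181 were higher (1.1%) and 45 were lower (24.9%), and 21 were lower in run 1 alone. Of 11 named Y-linked genes, 2 were higher, 2 were lower and 7 did not pass, shares near those of all genes tested (21.9% higher and 20.9% lower). Kdm5d, a histone demethylase, was higher, at 9.43 ± 0.794 CPM in NZO/HlLtJ testes and 7.17 ± 0.377 CPM in C57BL/6J (SD, n = 4 each). Leaving out NZO/HlLtJ replicate 2 or C57BL/6J replicate 1 or 2 left 1 of the list higher. Leaving out NZO/HlLtJ replicate 4 left 0 lower, and leaving out NZO/HlLtJ replicate 1 or 3 or C57BL/6J replicate 1, 3 or 4 left 1 lower. Chromosome 14 held 17 genes at least 8-fold higher and 48 lower of 908 tested. In 3 intervals there, at 0 to 5, 5 to 10 and 40 to 45 Mb, lay 55 of all 479 such genes (11.5%) and 0.931% of the genes tested, and all 55 have model names. These intervals were picked because they held many such genes. Of the 55, 13 were higher and 42 were lower. Their summed level was 60.1, 58.3, 49.1 and 53.7 CPM in NZO/HlLtJ, against 147, 147, 165 and 175 CPM in C57BL/6J. All 213 genes tested in these intervals summed to 1407 ± 20.01 CPM in NZO/HlLtJ testes and 1346 ± 65.98 CPM in C57BL/6J (SD, n = 4 each). By class, 26.0% of protein-coding genes were higher and 21.1% lower, against 9.23% and 25.5% of lincRNA genes. The part of read alignment in the shares by interval and class was not tested.

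**Figure D4:**
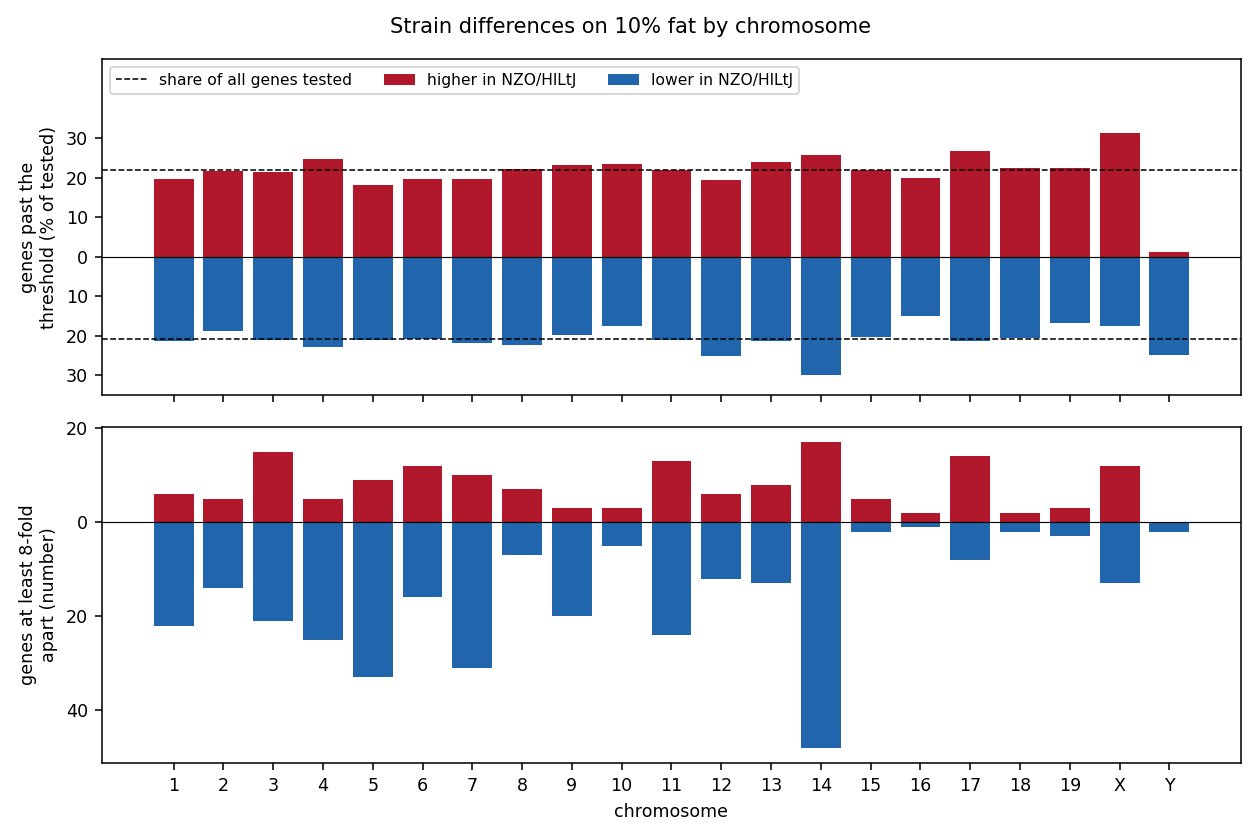
Genes of each chromosome that passed the threshold (top, % of tested) and genes at least 8-fold apart (bottom, number), higher in NZO/HlLtJ upward in red and lower downward in blue, with dashed lines at the shares of all genes. Chromosome Y has 1.1% higher and 24.9% lower, and chromosome 14 has 17 genes at least 8-fold higher and 48 lower.

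The strain difference on 10% fat was set beside that on 44% fat, which rests on other libraries, 4 of each strain. By their title numbers, the NZO/HlLtJ libraries on 44% fat are in runs 1 and 2, with none in the last run. The C57BL/6J libraries on 44% fat are spread over all runs. Strain on 44% fat, and the comparison of the diets, are therefore partly mixed with the ID run. The part of the run in these comparisons was not tested. On 44% fat 11299 genes passed (49.4%), and 8513 passed on both diets in the same direction, which is 86.8% of the genes of the 10% comparison and 75.3% of those of the 44% comparison. In 4 genes both diets passed in opposite directions. The difference of the strain effects was tested for each gene, and 0 genes passed by edgeR (0.0%; smallest adjusted p 0.107), with 926 at an unadjusted p under 0.05 (4.05%) and 2 past the threshold by DESeq2. Pakap, a kinase anchor, had the smallest p and was 1 of the 2: on 10% fat it had 3.81, 6.69, 6.24 and 5.68 CPM in NZO/HlLtJ, against 9.83, 10.3, 8.38 and 9.003 CPM in C57BL/6J. Its log2 fold change was -0.74 ± 0.17 on 10% fat and 0.53 ± 0.16 on 44% fat, and with its near copy Akap2 the sum on 10% fat was 44.6 ± 2.499 CPM in NZO/HlLtJ testes and 40.5 ± 3.51 CPM in C57BL/6J (SD, n = 4 each). Zc3h12b, a gene of a zinc finger family, had a log2 fold change of 0.03 on 10% fat and 1.07 on 44% fat, and Slc38a2, an amino acid transporter, had 0.26 on 10% fat and 0.79 on 44% fat. Neither difference passed (adjusted p 0.470 for Zc3h12b and 0.814 for Slc38a2), and Slc38a2 did not pass on 10% fat itself without NZO/HlLtJ replicate 2 or C57BL/6J replicate 1 (adjusted p from 0.0719 to 0.0727). Lhcgr, Igf2 and Agt had log2 fold changes of 1.63, 1.72 and -5.65 on 10% fat and of 1.77, 1.78 and -5.37 on 44% fat.

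**Figure D5:**
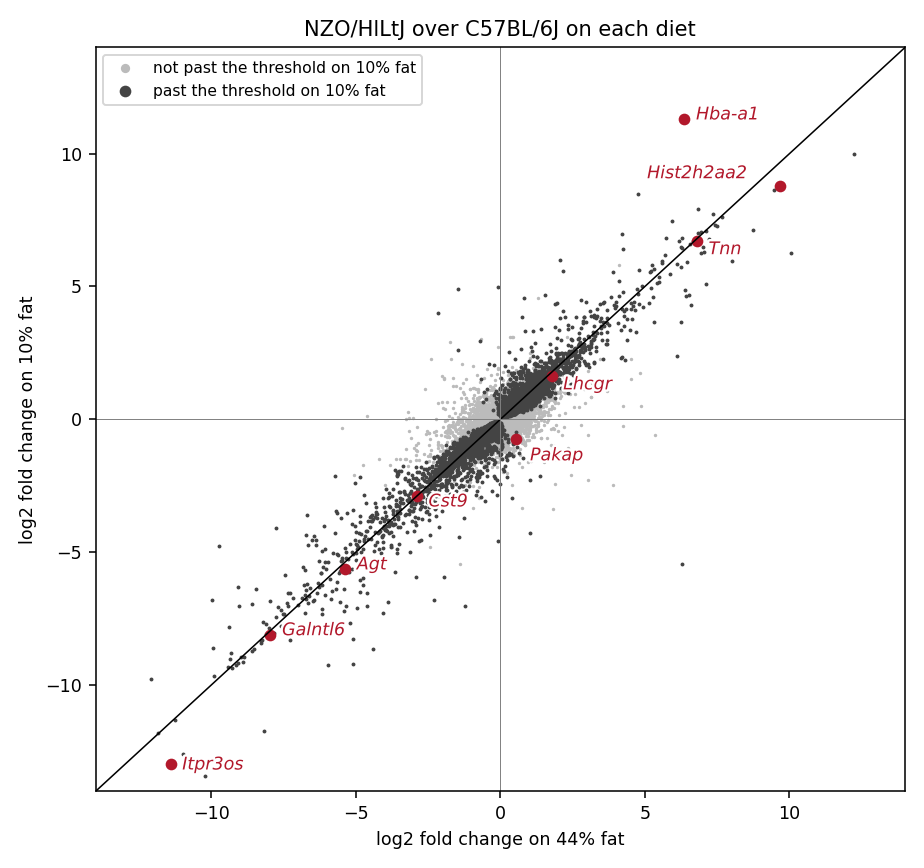
Log2 fold change of NZO/HlLtJ over C57BL/6J for each tested gene, on 10% fat (vertical) and on 44% fat (horizontal), with the line of equal values and some genes named. Most points lie along the line, and Pakap lies at -0.74 on 10% fat and 0.53 on 44% fat.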

How the data were processed

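The submitters deposited 1 table of estimated counts per gene and 1 table of variance-stabilised log2 values for 23 mouse testis libraries of polyA RNA. Per the submitters' processing notes DESeq2 and build GRCm38 were used; for the aligner, the counter and the annotation release, not given in the sources used here, no version can be stated. Values in the deposited count table were not whole in 23.1% of cases (tolerance 1e-06) and were rounded. All 28861 genes listed were above 0 in at least 12 libraries. Strand use in counting is not stated, nor whether reads were aligned to strain-specific sequence.

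With edgeR 4.0.16 in R 4.3.3, TMM scaling and filterByExpr over 6 groups of strain and diet, the quasi-likelihood test was fitted to all 23 libraries with 1 mean per group, and p-values were adjusted by Benjamini-Hochberg over 22873 genes. Errors of log2 fold changes are SE. Alternatives used DESeq2 1.42.0 and limma 3.58.1 among others. The log2 values deposited by the authors entered only the limma alternative. Groups came from strain and diet labels, and replicates were numbered in accession order. The ratio of chi-square to its degrees of freedom was 3.47 to 15.8 within strains, so no library was taken as a repeat of another. Depth was 21.9 to 43.4 M counts, and counting error is small beside the spread between libraries for all but the lowest genes. The test was checked on simulated counts.

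The comparison, the gene lists and the named genes were chosen with earlier results of these data known. Genes were named by rule: the 8 largest differences in each direction with at least 5 CPM in the higher group and a symbol; up to 3 called members per list, by size; a few set genes; the 3 smallest p of the diet contrast; and the 5 smallest p. Not all of these are described, a few list members are not reported here, and other genes were chosen after their values were seen. Near copies (transcripts at 90% identity over 50% of the length or more) were found with BLAST 2.17.0 in GENCODE M21 transcripts, in place of the planned proteins; 99.3% of genes were in that annotation. Promoters are from RefSeq.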

Additional observations from a re-analysis of the deposited data

Results flagged for a closer look

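In 16 of 226 sets of 4 libraries the highest or lowest library stood apart from the other 3 by Dixon's test at the 95% level, which chance gives in about 1 in 20 sets. NZO/HlLtJ replicate 4 was the library in 6 of them: Hsd3b1 (353.9 CPM), Insl3 (240.5), Igfbp3 (12.04), Tap2 (5.35) and Abcg1 (5.85) were highest there, and Cabs1 (399.3), a gene of elongating spermatids, was lowest. C57BL/6J replicate 4, the library with the fewest counts, was the one for Hsd3b6 (58.6 CPM), Lama1 (21.5), Dnmt3b (8.54), Cabs1 (568.9) and Dnmt3a (25.5). C57BL/6J replicate 2 stood apart in Crisp1 (13.02 CPM) and Ren1 (1.10), and C57BL/6J replicate 3 in Fosb (3.88). NZO/HlLtJ replicate 3 stood apart in Eno1b (4.59 CPM) and in Ppp1r2-ps1 (0.0447). No result was left out for these values, and their causes were not tested.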

How the results depend on the processing

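There were 9805 genes differing between NZO/HlLtJ and C57BL/6J on 10% fat, and the count was 8361 with the 8 libraries alone, 9983 by DESeq2, 9930 with DESeq2-type size factors, 9741 with no filter, 10073 by limma on the deposited log2 values, 9574 with the ID run as a covariate, 7624 in run 1 alone and 6582 in run 3 alone. With a 2-fold limit (glmTreat) 1023 passed, 416 higher and 607 lower. Leaving out 1 library gave 8459 to 9425 genes on 10% fat, 4277 to 4890 higher and 4182 to 4596 lower, 11246 to 11408 on 44% fat and 7545 to 8321 on both diets. The test of the diet contrast gave 0 genes, 2 by DESeq2 (Pakap, adjusted p 0.00201, and 4930408K08Rik, 0.00719), and 0 to 1 when a library was left out: RP23-272E5.1 without NZO/HlLtJ replicate 1 (adjusted p 0.0487) and Pgk1 without NZO/HlLtJ replicate 2 (0.0387). At least 8-fold higher were 157 genes, 244 with no filter and 3 by limma. At least 8-fold lower were 322, and 6 by limma. The limma counts rest on the deposited variance-stabilised values, so their folds are not the same measure as those of edgeR. Bst2 (log2 fold change 0.67, run 1 alone -0.0382) and Ddx4 (-0.16, run 1 alone 0.0413) reversed in run 1 alone; the cause was not tested. Of 1899 values of named genes over all settings, 1737 kept direction and side of the threshold, 158 no longer passed (71 of them under the 2-fold limit), 2 newly passed and 2 reversed. Of 60 counts of list members, 55 stayed within 1.5 times with the 8 libraries alone, 57 by DESeq2, 37 in run 1 alone, 44 in run 3 alone and 10 under the 2-fold limit. The higher genes of chromosome Y, 2, were 1 without C57BL/6J replicate 1. The alternatives for counts on 44% fat, on both diets, at 8-fold and by chromosome were chosen after seeing the data. No paired analysis was possible because the labels give no replicate numbers. Low genes are limited by depth, least in NZO/HlLtJ replicate 3 and most in C57BL/6J replicate 4.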

Other observations

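Ribosomal protein genes, which encode the protein part of the ribosome, turned with the ID run. Of 85 tested, 28 were higher and 6 were lower in NZO/HlLtJ, with a median log2 fold change of 0.12. The median was -0.12 in run 1 alone and 0.31 in run 3 alone, while that of all genes was 0.02 in run 1 and 0.01 in run 3. Their summed level was 8730 CPM in NZO/HlLtJ replicate 1, 8591 in replicate 2, 10046 in replicate 3 and 9802 in replicate 4, against 9371, 9110, 8267 and 7806 CPM in C57BL/6J replicates 1 to 4. In NZO/HlLtJ the libraries of run 1 were below those of run 3, and in C57BL/6J those of runs 1 and 2 were above those of run 3.

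In 212 genes the strain difference passed in opposite directions in run 1 alone and run 3 alone, 156 of them higher in run 1 and 56 lower. Of the 212, 17 were ribosomal protein genes, all lower in NZO/HlLtJ in run 1. Caps2, a calcium-binding protein, had 54.8, 54.9, 44.8 and 28.05 CPM in NZO/HlLtJ, against 40.7, 47.9, 73.2 and 69.4 CPM in C57BL/6J. Cenpe, a kinesin of dividing cells, had 167, 178, 149 and 152 CPM in NZO/HlLtJ, against 140.4, 144, 196 and 201 CPM in C57BL/6J. Sycp2, a synaptonemal protein, had 403, 447, 342 and 332 CPM in NZO/HlLtJ, against 355, 371, 453 and 462 CPM in C57BL/6J. In all 3 genes NZO/HlLtJ was above C57BL/6J in replicates of run 1 and below it in run 3. The cause was not tested. Of 9495 called genes tested in both runs, 9168 (96.6%) had the same sign in both. These genes were called with the libraries of both runs in the fit, so such agreement is partly built in.

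CAST/EiJ on 10% fat was set beside the genes at least 8-fold apart. Of the 157 higher genes its level was nearer to NZO/HlLtJ in 63 and nearer to C57BL/6J in 94, on log2(CPM + 0.1). Of the 322 lower genes it was nearer to NZO/HlLtJ in 188 and nearer to C57BL/6J in 134. Galntl6 averaged 0.332 CPM in NZO/HlLtJ, 0.438 CPM in CAST/EiJ and 91.7 CPM in C57BL/6J, and Agt averaged 3.45 CPM in NZO/HlLtJ, 1.55 CPM in CAST/EiJ and 175 CPM in C57BL/6J.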
